A study of Mus musculus with 32 samples.

Results

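Total RNA of microglia sorted from mouse brain was compared with the background RNA that an isotype control antibody carried along from homogenate of the same brains. The comparison takes the 8 libraries whose description and column name read Sort and the 8 IgG libraries, that is 16 of the 32 libraries of the series. Each of the 8 mice gave 1 library of either kind, 4 mice of the Cx3cr1-CreER line and 4 of the Sall1-CreER line, so line and replicate number within line form the pairs. The series examined how such inducible Cre lines serve the study of brain macrophages.

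All mice had a C57BL/6 background and carried RPL22-HA (RiboTag), an allele that adds an epitope to a ribosomal protein in cells where Cre has acted. They all received tamoxifen at 4 to 6 weeks of age, as 4 gavages of 5 mg on alternate days, so no untreated or untagged group exists. The drivers are active where Cx3cr1 is (microglia and other macrophages) or where Sall1 is, but neither kind of library used here selects on the tag by its description. Sort cells were freed with collagenase for 20 min at 37 degrees, enriched on 40% Percoll and sorted by flow cytometry after perfusion with PBS. The markers of the sort gate and the age at collection are not given in the sources used here. IgG samples were homogenized on ice with cycloheximide, cleared and precipitated with a mouse IgG1 isotype control. Cell type and preparation differ together between Sort and IgG and cannot be told apart.

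The labels conflict for the Cx3cr1 line. The 4 libraries that enter as Cx3cr1 Sort by description and column name bear titles and an antibody label of the sorted cells with anti-HA precipitation, while the other 4 sorted Cx3cr1 libraries are labelled the other way round. In the Sall1 line titles and descriptions name the same groups. The share of reads that fell in exons was 63.5 to 66.4% in the 4 Cx3cr1 libraries used as Sort, 62.1 to 65.8% in Sall1 Sort, 71.2 to 75.9% in the Cx3cr1 libraries titled Sort, and 65.3 to 74.8% in the Sall1 libraries of sorted cells with precipitation, which overlaps Sall1 Sort. A list of 30 homeostatic microglial genes took 12.1 to 14.2% of gene counts in the Cx3cr1 libraries used as Sort and 11.4 to 13.4% in Sall1 Sort. It took 15.8 to 17.6% in the Cx3cr1 libraries titled Sort and 15.5 to 17.3% in the Sall1 libraries with precipitation. Which labels are right was not tested. Counts are therefore given for both lines, for the Sall1 line alone and with the Cx3cr1 libraries chosen by title.

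Gene counts per library ran from 746794 to 1808789 in Sort and from 704183 to 4047465 in IgG, and 12314 to 13366 genes had a count in Sort against 14103 to 16190 in IgG. Levels below are counts per 1e6 gene counts of the library (CPM). Fold changes are Sort over IgG within a mouse, on the log2 scale, from edgeR with TMM scaling, and p values are adjusted over all genes tested. Beside a fold, ± gives an SE, the absolute fold divided by the root of its F statistic in that fit. It is a model value over 8 mice, or over 4 for a line alone, and no spread between mice. Of 12424 genes tested, 10435 (84%) passed an adjusted p of 0.05: 4560 (36.7%) were higher in Sort and 5875 (47.3%) lower. Beyond a log2 fold of 1, 7104 genes (57.2%) passed: 2784 (22.4%) were higher and 4320 (34.8%) lower. The Sall1 line alone gave 8738 calls (77.4%), with 4163 higher (36.9%) and 4575 lower (40.5%) of 11291 genes, and the Cx3cr1 line by description 8994 calls (76.6%), with 3932 higher (33.5%) and 5062 lower (43.1%) of 11734. By title, 4649 were higher and 5228 lower, and 9425 of the 10435 calls held in the same direction. The median log2 fold over all genes was -0.27, against -0.05 without TMM and 0.24 with a trend over transcript length removed; in the last fit 5824 were higher and 4942 lower. A count of called members has to be read against these shares, since most genes differ between sorted cells and brain background. The Cx3cr1 IgG library of mouse 2 stood apart from the other IgG libraries (correlation 0.855 to 0.958 with them), and without that mouse 10603 genes passed, 10235 of them shared with the full set.

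Microglia are the resident macrophages of the brain parenchyma. They depend on signalling through the CSF1 receptor, survey tissue through purinergic and chemokine receptors, produce complement C1q and clear debris through phagocytosis and lysosomes. Adult microglia are told from other macrophages by genes such as P2ry12, Tmem119 and Sall1, and these are known to fall in activated cells. Enzymatic digestion at warm temperature is known to raise immediate early and cytokine mRNAs in these cells.

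P2ry12, the ADP receptor of microglial processes (chromosome 3, 59020193 to 59066753, mm9), ranged from 2335 to 3890.0 CPM in Sort (median 3073) and from 34.5 to 88.8 CPM in IgG (median 68.2). Tmem119, a transmembrane protein used as a microglial marker, ranged from 1964 to 2963 CPM in Sort (median 2416) and from 21 to 52.5 CPM in IgG (median 40.1). For both, every Sort library lay above every IgG library, and the log2 folds were 5.43 ± 0.17 and 5.78 ± 0.17 (adjusted p = 1.89e-15 and 1.58e-15). Camk2a, a kinase subunit of excitatory neurons, ranged from 8.94 to 38.3 CPM in Sort (median 20.2) and from 1501 to 2653 CPM in IgG (median 2049). Aldoc, the astrocyte aldolase (chromosome 11, 78137700 to 78141280), ranged from 9.55 to 34.2 CPM in Sort (median 18) and from 1596 to 2147 CPM in IgG (median 1918). These markers of other cells were lower in every Sort library than in any IgG library, by log2 folds of -6.70 ± 0.24 and -6.85 ± 0.20 (adjusted p = 2.84e-14 and 1.54e-15). The markers thus separated sorted cells from IgG in the 16 libraries. They do not tell which of the conflicting labels of the sorted Cx3cr1 libraries is right. In bulk libraries, fewer cells of a type and less RNA per cell cannot be told apart.

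The genes that drive Cre were measured as well. Cx3cr1, the fractalkine receptor, ranged from 2393 to 6626 CPM in Sort (median 4571) and from 51.5 to 98.4 CPM in IgG (median 66.2; log2 fold 5.73 ± 0.25, adjusted p = 1.34e-12). Within Sort it stood at 4519.8, 2475, 2393 and 4387 CPM in mice 1 to 4 of the Cx3cr1 line and at 4622, 4817, 6626 and 5612 CPM in mice 7, 9, 17 and 21 of the Sall1 line. The Sall1-line libraries were all the higher ones, but the difference in fold between lines (1.08 ± 0.31) did not pass (adjusted p = 0.485, and 0.00875 by title). Sall1, a zinc finger factor that maintains microglial identity, ranged from 228 to 521 CPM in Sort (median 382) and from 7.1 to 22.1 CPM in IgG (median 14.7; log2 fold 4.37 ± 0.18, adjusted p = 6.51e-14). Its Sort levels were 466, 521, 442 and 468 CPM in the Cx3cr1 line and 261, 322, 228 and 273 CPM in the Sall1 line. Here the Sall1-line libraries were the lower ones, and again the difference in fold (-0.77 ± 0.30) did not pass (adjusted p = 0.746). Rpl22, the gene of the tagged ribosomal protein, ranged from 209 to 373 CPM in Sort (median 257) and from 112 to 145 CPM in IgG (median 119.6; log2 fold 0.87 ± 0.12, adjusted p = 2.19e-06), with a median of 0.48 over the ribosomal protein genes tested.

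**Figure D1:**
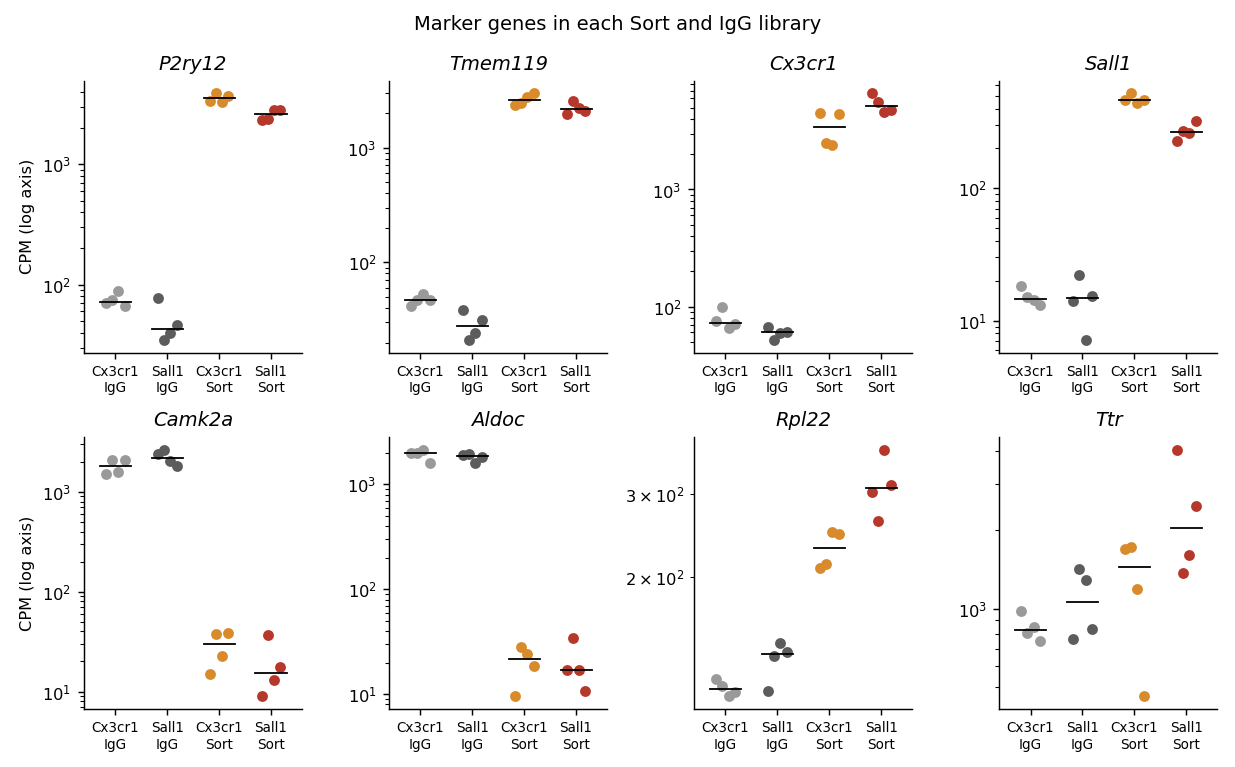
CPM (log axis) of 8 genes in each of the 16 libraries, with 4 points and a median line per line and kind. P2ry12, Tmem119, Cx3cr1 and Sall1 lie above IgG in all Sort libraries, Camk2a and Aldoc below it, and Ttr of the choroid plexus overlaps between Sort and IgG.

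Promoter windows of some of these genes are printed because whole groups of them moved together. Each window runs from 250 bases before to 50 bases from the annotated transcript start, from RefSeq (GRCm38.p6). Of the 12424 genes tested, 9582 had at least 1 window, 12398 windows in all, and Tmem119, Camk2a and Ccl4 have no entry. Searched on both strands were GAGGAAGT (a PU.1 site), TGACTCA (AP-1), TGACGTCA (CRE) and TATAAA, none of which contains another, and capitals mark matches. P2ry12 (chr3:59262936-59263235, minus strand), Aldoc (chr11:78322823-78323122, plus strand, and a second start at chr11:78323948-78324247, plus strand) and Klhdc8a (chr1:132298376-132298675, plus strand) held no match.
P2ry12: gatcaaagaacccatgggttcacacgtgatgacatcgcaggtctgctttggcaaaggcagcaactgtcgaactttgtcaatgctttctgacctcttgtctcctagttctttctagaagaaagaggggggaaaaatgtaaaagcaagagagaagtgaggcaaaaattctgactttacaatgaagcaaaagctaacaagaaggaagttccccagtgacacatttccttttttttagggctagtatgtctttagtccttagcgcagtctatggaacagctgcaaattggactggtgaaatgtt
Aldoc, first start: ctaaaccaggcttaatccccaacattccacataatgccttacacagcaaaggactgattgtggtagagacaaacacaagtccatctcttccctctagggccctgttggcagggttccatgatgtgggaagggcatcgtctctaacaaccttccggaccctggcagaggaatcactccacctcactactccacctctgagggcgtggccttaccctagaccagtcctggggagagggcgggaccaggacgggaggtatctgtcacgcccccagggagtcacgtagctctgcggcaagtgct
Aldoc, second start: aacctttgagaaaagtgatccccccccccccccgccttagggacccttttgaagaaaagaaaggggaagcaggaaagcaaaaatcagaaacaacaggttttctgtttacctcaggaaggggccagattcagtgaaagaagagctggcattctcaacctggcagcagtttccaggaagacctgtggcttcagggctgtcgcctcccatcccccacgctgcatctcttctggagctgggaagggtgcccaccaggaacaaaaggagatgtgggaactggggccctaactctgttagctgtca
Klhdc8a: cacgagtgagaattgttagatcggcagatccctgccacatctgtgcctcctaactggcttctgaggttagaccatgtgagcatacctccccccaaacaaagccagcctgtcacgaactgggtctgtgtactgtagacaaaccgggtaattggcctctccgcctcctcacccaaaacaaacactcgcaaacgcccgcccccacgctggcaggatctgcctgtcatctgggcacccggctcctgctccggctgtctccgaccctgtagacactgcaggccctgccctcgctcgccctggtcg

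C1qc (chr4:136892865-136893164, minus strand) and Ctss (chr3:95526536-95526835, plus strand) were added after the search, as the members of the homeostatic list with a PU.1 match. PU.1, encoded by Spi1, is the lineage factor of macrophages. In both windows the match lies on the strand opposite to the gene, and it starts 195 bases before the start of C1qc and 2 bases before that of Ctss; Ctss also holds TATAAA on that strand.
C1qc: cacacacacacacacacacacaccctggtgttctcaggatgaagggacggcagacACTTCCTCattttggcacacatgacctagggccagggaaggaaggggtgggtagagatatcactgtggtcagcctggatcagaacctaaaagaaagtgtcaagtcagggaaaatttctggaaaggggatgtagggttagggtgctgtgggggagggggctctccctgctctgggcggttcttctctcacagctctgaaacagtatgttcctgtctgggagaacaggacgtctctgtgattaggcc
Ctss: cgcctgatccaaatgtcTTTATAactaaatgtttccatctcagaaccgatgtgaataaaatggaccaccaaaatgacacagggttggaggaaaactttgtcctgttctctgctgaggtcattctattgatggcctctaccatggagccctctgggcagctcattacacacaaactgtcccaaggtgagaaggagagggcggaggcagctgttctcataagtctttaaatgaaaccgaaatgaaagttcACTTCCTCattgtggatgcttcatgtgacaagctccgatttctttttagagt

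Over all windows of genes tested 2.81% held the PU.1 sequence, with 4.42% in windows of genes higher in Sort, 1.86% in those lower in Sort, and 2 of 27 windows of the homeostatic list. The AP-1 sequence was in 3.51% of all windows, 3.63% of the higher and 3.5% of the lower. The CRE sequence was in 3.03%, 2.85% and 3.05% of these windows, and TATAAA in 6.92%, 7.35% and 6.77%. No test was made on these shares.

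The homeostatic microglial list held 30 genes, all 30 tested and all 30 higher in Sort, where 36.7% of all genes tested were higher, with a median log2 fold of 5.68 and a range of 2.91 to 6.31. None overlapped between the groups, against 27.5% of all genes that lay higher without overlap and 34.2% that lay lower. All 30 also passed in the Sall1 line alone (median 6.03), and by title the median was 5.91. Together they took 11.4 to 14.2% of all gene counts in Sort (median 12.7) and 0.321 to 0.473% in IgG. Trem2, a lipid receptor of phagocytes, ranged from 2218 to 2841 CPM in Sort (median 2464) and from 26.8 to 47 CPM in IgG (median 34.2; log2 fold 5.88 ± 0.14, adjusted p = 8e-16). Laptm5, a lysosomal membrane protein of blood-derived lineages, ranged from 3977 to 5281 CPM in Sort (median 4468) and from 46.9 to 80.1 CPM in IgG (median 72.3; log2 fold 5.82 ± 0.14, adjusted p = 8e-16). C1qb, a chain of complement C1q, ranged from 8256 to 12102 CPM in Sort (median 10271) and from 116 to 184 CPM in IgG (median 140.3; log2 fold 5.90 ± 0.15, adjusted p = 8.02e-16). In none of these did the groups overlap.

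Per kilobase of transcript, Cst3 had the highest mean in Sort, at 37038 ± 5643 CPM per kb (SD, n = 8). Cst3 encodes cystatin C, a secreted protease inhibitor. C1qb (9693 ± 1349), C1qa (9549 ± 683), C1qc (7032 ± 628) and Ctss (6132 ± 613 CPM per kb), the last a lysosomal protease, followed; the ranges of 1 SD of C1qb and C1qa overlapped, as did those of C1qc and Ctss. In IgG the leading genes were Nrgn (2954 ± 321 CPM per kb), a calmodulin-binding protein of neuronal dendrites, then Rplp1, Ckb, Tuba1a and Fth1. Fth1, the ferritin heavy chain, overlapped between the kinds and did not pass: it ranged from 2114 to 3667 CPM in Sort (median 2842) and from 1637 to 2923 CPM in IgG (median 2636; log2 fold -0.05 ± 0.12, adjusted p = 0.7). By title its log2 fold was -0.49 (adjusted p = 0.0456) and with both sorted libraries of a mouse summed -0.27 (0.043).

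Of 14 microglial transcription factor genes, 12 were higher in Sort, 0 lower and 2 did not pass (median log2 fold 4.49, and 4.47 in the Sall1 line). Runx1, a factor of blood cell lineages, ranged from 279.9 to 468 CPM in Sort (median 332) and from 2.22 to 5.68 CPM in IgG (median 3.11; log2 fold 6.46 ± 0.18, adjusted p = 1.18e-15). Irf5 and Irf8, interferon regulatory factors of macrophages, had log2 folds of 5.69 ± 0.16 and 5.43 ± 0.16 (adjusted p = 1.15e-15 and 1.34e-15), and neither overlapped between groups. The exceptions were Mef2c, which neurons also express (0.35 ± 0.17, adjusted p = 0.0645), and Etv5 (0.26 ± 0.19, adjusted p = 0.214). Mef2c ranged from 304 to 546 CPM in Sort (median 451) and from 162 to 422 CPM in IgG (median 337), so it was well measured in both. By title both passed as higher, and 14 of 14 were called.

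**Figure D2:**
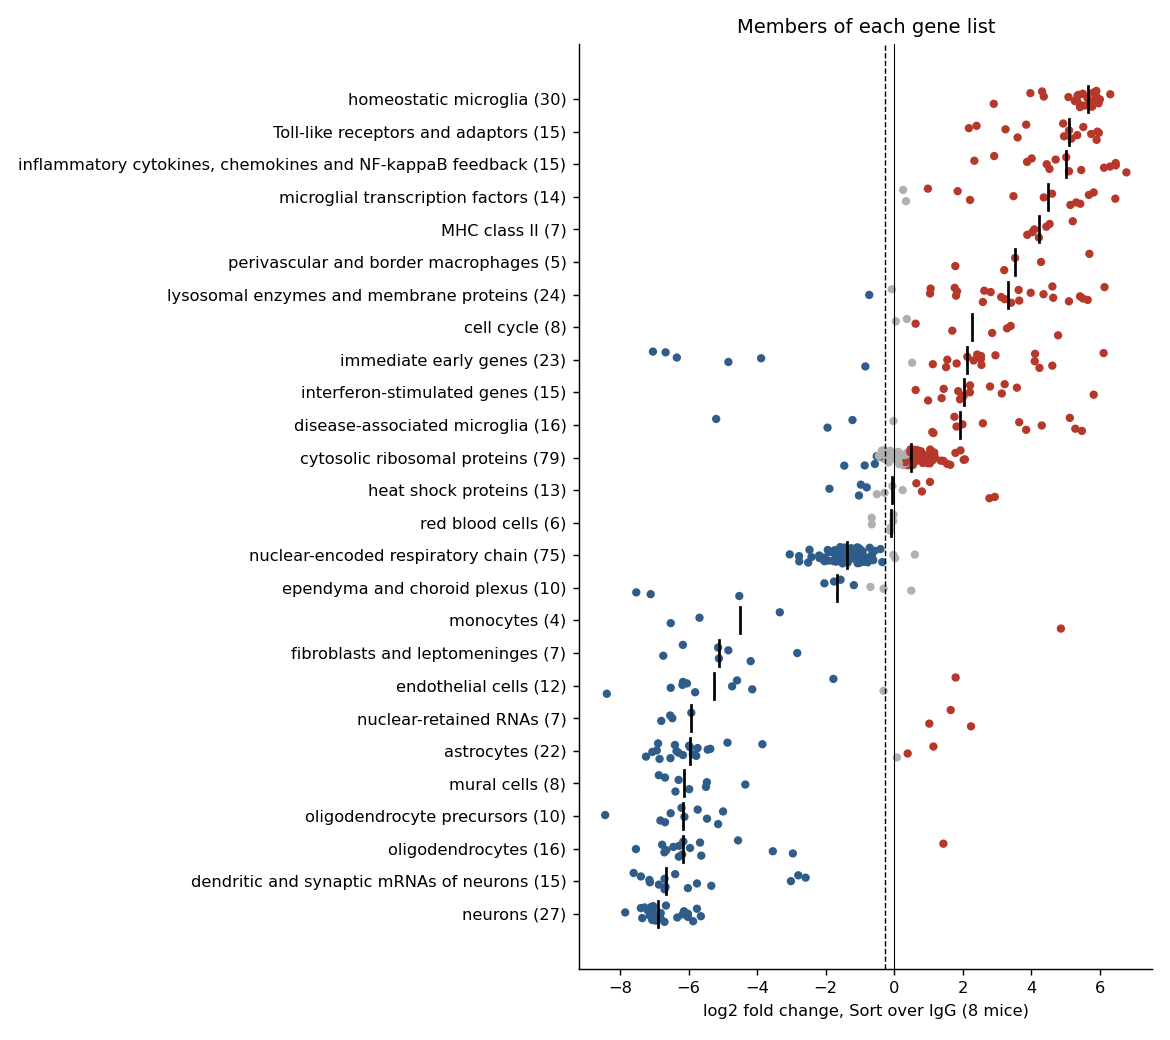
Log2 fold change of Sort over IgG for each tested member of 26 gene lists, with the number tested in brackets and a black bar at the median. Red points passed as higher, blue as lower, grey did not pass; the dashed line marks the median of all genes, -0.27.

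Of 24 lysosomal genes, 22 were higher, 1 lower and 1 did not pass (median 3.32), and the list took 3.89 to 4.62% of counts in Sort against 0.283 to 0.353% in IgG. Cd68, a lysosomal glycoprotein of macrophages, ranged from 906 to 1274 CPM in Sort (median 1135) and from 7.1 to 19.7 CPM in IgG (median 12), without overlap. Its log2 fold was 6.14 ± 0.16, and that of Grn, the progranulin gene, was 4.62 ± 0.13 (adjusted p = 1.15e-15 and 1.15e-15). The exception Gla, alpha-galactosidase, was lower with overlapping groups (log2 fold -0.73 ± 0.22, adjusted p = 0.0048), and it lost its call with the length trend removed (-0.23). All 15 tested of 18 listed genes of Toll-like receptors and adaptors were higher (median 5.11), and all 18 without the filter on low counts. Among them Cd14, the co-receptor for lipopolysaccharide, ranged from 353 to 556 CPM in Sort (median 424) and from 1.42 to 11.7 CPM in IgG (median 5.62; log2 fold 5.93 ± 0.18, adjusted p = 1.81e-15), while Tlr2 and Tlr4 had folds of 5.18 ± 0.19 and 4.96 ± 0.18.

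MHC class II genes, which present antigen to CD4+ T cells, were higher in all 7 tested of 9 listed (median 4.23). Without the filter on low counts, which a gene can pass through Sort alone, 8 of 9 were higher. Cd74, the invariant chain, ranged from 133 to 452 CPM in Sort (median 257) and from 7.27 to 20.2 CPM in IgG (median 11.9; log2 fold 4.09 ± 0.18, adjusted p = 1.26e-13). H2-DMa and H2-DMb1, which load peptide, had log2 folds of 4.44 ± 0.16 and 4.54 ± 0.20 (adjusted p = 9.95e-15 and 1.58e-13). All 15 interferon-stimulated genes tested, of 16 listed, were higher as well (median 2.03). In the Sall1 line 14 of 15 were higher, and without the filter 16 of 16. Mx1, an antiviral GTPase, ranged from 24.3 to 43.7 CPM in Sort (median 35.3) and from 0 to 1.36 CPM in IgG (median 0.283; log2 fold 5.83 ± 0.36, adjusted p = 1.88e-11). Bst2 (tetherin) and Ifi27l2a followed at 3.58 ± 0.16 and 3.23 ± 0.20. Of 15 cell cycle genes 8 passed the filter on low counts, which a gene can pass through Sort alone; 6 of these were higher and 2 did not pass the test. After thinning 2 of 4 tested were higher, and without the filter 12 of 15. Mki67, the proliferation antigen, had 154 counts over the 8 Sort libraries and 7 over the 8 IgG libraries (log2 fold 4.79 ± 0.56, adjusted p = 2.53e-07), a low level in either. Cdk1, the mitotic kinase, and Cenpf, a kinetochore protein, had folds of 3.30 ± 0.41 and 3.40 ± 0.49.

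Of 16 genes known from disease-associated microglia, a state described around plaques, 12 were higher, 3 lower and 1 did not pass (median 1.91). Ctsd (cathepsin D, 3.65 ± 0.12), Cd9 (a tetraspanin, 4.31 ± 0.17) and Ccl6 (a chemokine, 5.13 ± 0.23) had the smallest adjusted p among the higher ones, and many members are also expressed by homeostatic cells. Fabp5, a fatty acid-binding protein, had 3 counts over all Sort libraries and 231 over IgG. Spp1 (osteopontin, log2 fold -1.94 ± 0.39, adjusted p = 0.000163) and Igf1 (log2 fold -1.22 ± 0.45, adjusted p = 0.02) were lower with overlapping groups. Spp1 had 33 counts and Igf1 38 over all Sort libraries, so these folds rest on few reads.

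Of 18 inflammatory genes listed, 15 passed the filter on low counts, which a gene can pass through Sort alone. All 15 were higher, with a median log2 fold of 5.02 (5.66 in the Sall1 line, 5.31 by title). Without the filter 16 of 18 were higher and 1 lower. Of the 10 largest rises among non-overlapping calls that averaged a log2 CPM of 4 or more, 5 encode cytokines or chemokines: Tnf, Ccl4, Ccl12, Ccl3 and Ccl9. Tnf ranged from 15.8 to 109 CPM in Sort (median 57.4) and from 0 to 2.02 CPM in IgG (median 0.124; log2 fold 6.78 ± 0.45, adjusted p = 2.02e-10). Ccl3 and Ccl4, chemokines that attract leukocytes, ranged from 209 to 909 CPM in Sort (median 501) and from 1.7 to 16.6 CPM in IgG (median 3.27), and from 104 to 651 CPM in Sort (median 269) and from 0 to 9.7 CPM in IgG (median 2.02). None of these overlapped between groups, although Ccl3 and Ccl4, and Ccl2 and Ccl12, have closely related copies whose reads the counting could split. Their log2 folds were 6.30 ± 0.46 (Ccl3), 6.47 ± 0.31 (Ccl4), 6.13 ± 0.31 (Ccl2) and 6.47 ± 0.45 (Ccl12). Icam1, an adhesion molecule (5.02 ± 0.18), and Il1a, interleukin 1 alpha (5.46 ± 0.28), were also among the leading members by p (adjusted p = 1.11e-14 and 1.4e-12).

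The other large rises were Runx1 and Cd79b, named in their lists, and Gpr65 (6.44 ± 0.42), a proton-sensing receptor, Gpr84 (6.31 ± 0.26), a receptor for medium-chain fatty acids, and Susd3 (6.29 ± 0.16). Susd3 ranged from 582 to 804 CPM in Sort (median 682) and from 4.26 to 10.8 CPM in IgG (median 7.37), and its fold had the smallest SE of the 10. The windows of Tnf (chr17:35201958-35202257, minus strand) and Ccl12 (chr11:82101595-82101894, plus strand), the first of these genes with an entry, are shown for their TATAAA, at 29 and 31 bases before the start. Of 11 windows of the inflammatory list 7 held TATAAA and 4 TGACTCA, where all windows held them at 6.92% and 3.51%.
Tnf: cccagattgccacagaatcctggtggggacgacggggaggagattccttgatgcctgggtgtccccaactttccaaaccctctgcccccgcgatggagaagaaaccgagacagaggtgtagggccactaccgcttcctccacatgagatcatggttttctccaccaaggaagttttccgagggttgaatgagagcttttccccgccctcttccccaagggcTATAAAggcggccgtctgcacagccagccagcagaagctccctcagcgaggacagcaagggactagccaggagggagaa
Ccl12: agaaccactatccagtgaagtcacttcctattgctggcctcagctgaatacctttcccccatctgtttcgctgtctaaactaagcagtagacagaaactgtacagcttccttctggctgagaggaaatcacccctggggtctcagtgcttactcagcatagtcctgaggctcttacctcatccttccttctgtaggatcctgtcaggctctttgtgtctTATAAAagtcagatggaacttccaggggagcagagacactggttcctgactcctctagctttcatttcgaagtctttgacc

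Immediate early genes, which encode short-lived mRNAs induced without new protein synthesis, did not move as a block. Of 23 tested, 16 were higher in Sort, 6 lower and 1 did not pass (median 2.14). Zfp36, an mRNA decay factor, ranged from 892 to 2766 CPM in Sort (median 1679) and from 14.7 to 30.8 CPM in IgG (median 19.5; log2 fold 6.12 ± 0.21, adjusted p = 5.92e-15). Klf6 and Ier5 had log2 folds of 2.96 ± 0.19 and 2.53 ± 0.17. Fos and Jun, subunits of AP-1 named here after their values were seen, ranged from 523 to 2327 CPM in Sort (median 1276) and from 1278 to 5925 CPM in Sort (median 2671), against medians of 54.2 and 90.9 CPM in IgG. The 6 lower members, named for the same reason, were Arc, Egr3, Nr4a1, Nr4a2, Npas4 and Fosl2. Arc and Npas4 are known for induction in active neurons. Arc ranged from 1.31 to 5.87 CPM in Sort (median 3.49) and from 229 to 434 CPM in IgG (median 287; log2 fold -6.67 ± 0.21, adjusted p = 2.55e-15), and Npas4 had 8 counts over all Sort libraries and 1916 over IgG. Fosl2 overlapped between groups (log2 fold -0.84 ± 0.23, adjusted p = 0.00248) and its sign turned with the length trend removed (0.07).

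The level of immediate early and inflammatory mRNA varied widely between sorted brains. The immediate early list took 1.84, 0.779, 1.63 and 0.816% of counts in Sort of mice 1 to 4 of the Cx3cr1 line, and 0.567, 1.7, 1.65 and 0.781% in mice 7, 9, 17 and 21 of the Sall1 line. The inflammatory list took 0.323, 0.198, 0.382 and 0.156%, and 0.222, 0.479, 0.362 and 0.19%, in the same order. Mice 1, 3, 9 and 17 were thus the 4 highest for either list. In the other sorted library of the same mice the immediate early share was 0.916, 0.637, 1.02, 0.478, 0.418, 1.37, 0.881 and 0.377%, and the inflammatory share 0.271, 0.149, 0.3, 0.155, 0.169, 0.341, 0.317 and 0.145%. Those 4 mice were again the highest in each. In IgG the immediate early share was 0.162, 0.232, 0.169, 0.18, 0.203, 0.214, 0.21 and 0.188%, a narrow range in which mouse 2 was the highest. The homeostatic share in Sort was 12.1, 14.2, 12.8, 12.8, 13.4, 12.4, 11.4 and 12.6% in the same order, lowest in mice 17, 1 and 9, which are 3 of those 4 mice. In the other sorted library this share was 17.6, 15.8, 16.2, 17, 16.5, 16.3, 15.5 and 17.3%. There mouse 1 was the highest and mouse 17 the lowest.

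**Figure D3:**
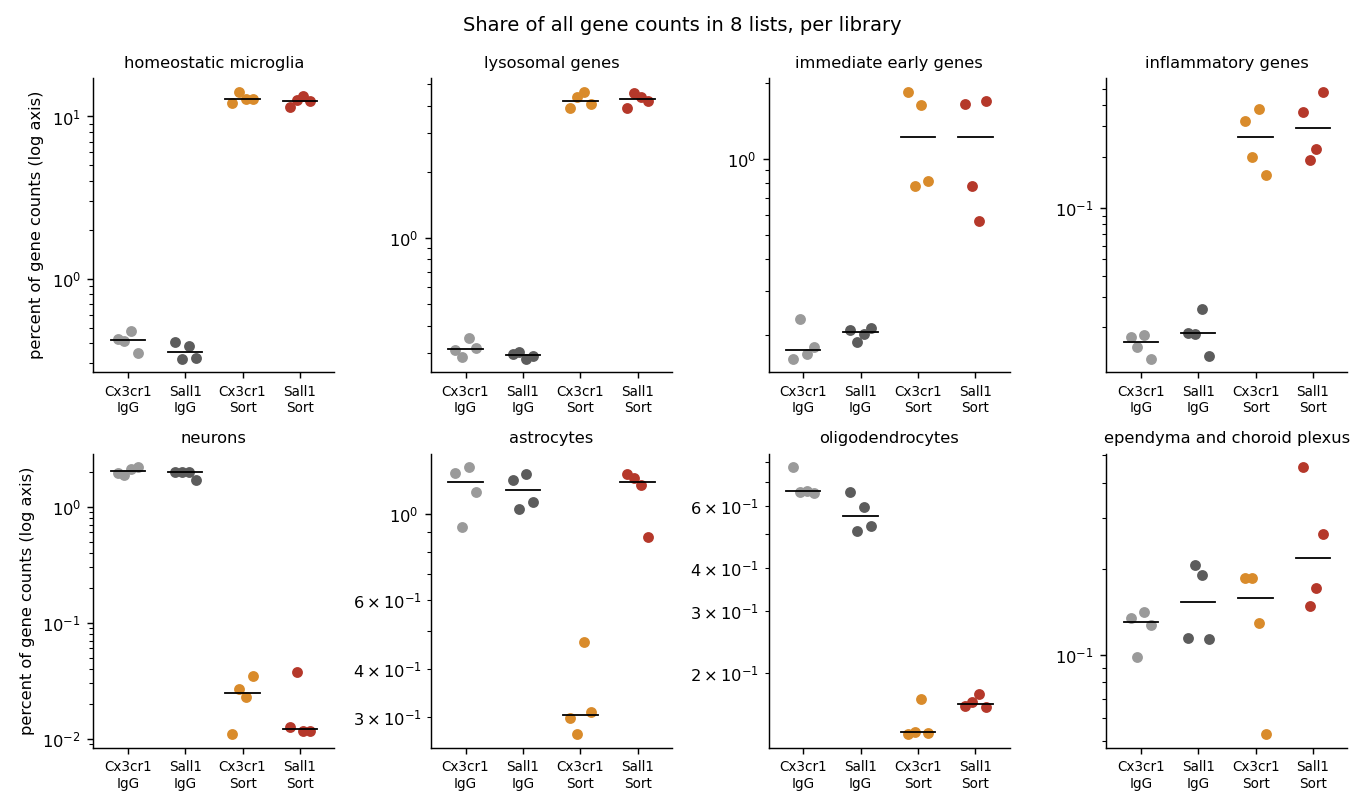
Percent of all gene counts (log axis) in 8 lists, with 4 libraries and their median per line and kind. The immediate early and inflammatory lists spread widely within Sort of either line, the astrocyte list lies higher in Sort of the Sall1 line, where Apoe holds most of its counts, and the list of ependyma and choroid plexus overlaps between Sort and IgG.

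Heat shock genes gave 5 higher, 4 lower and 4 not passing of 13, where 36.7% of all genes tested were higher and 47.3% lower. Their median of -0.05 turned to 0.16 without TMM and 0.34 with the length trend removed. By adjusted p the first of the higher ones was Bag3, a co-chaperone (log2 fold 1.05 ± 0.17, adjusted p = 1.24e-05), and the first of the lower ones were Hsph1 (-1.89 ± 0.17), Hspa8 (-0.80 ± 0.11) and Hspd1 (-0.97 ± 0.18). By title Hspa8 did not pass (log2 fold -0.25, adjusted p = 0.146). Hspa1a and Hspa1b, near-identical inducible chaperones whose reads cannot be assigned with certainty, stood at 2.78 ± 0.47 and 2.94 ± 0.48; they are named after their values were seen.

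Genes of neurons were lower in Sort in 27 of 27 cases, with a median log2 fold of -6.90 (-6.74 in the Sall1 line, -6.33 by title). They took 0.0109 to 0.0372% of counts in Sort (median 0.0177) and 1.72 to 2.18% in IgG (median 1.98). Grin1, an NMDA receptor subunit, ranged from 1.31 to 5.87 CPM in Sort (median 3.16) and from 492 to 826 CPM in IgG (median 731; log2 fold -7.85 ± 0.22, adjusted p = 1.15e-15). Nrgn ranged from 13.7 to 44.6 CPM in Sort (median 23.8) and from 3246 to 4369.6 CPM in IgG (median 3831; log2 fold -7.40 ± 0.22, adjusted p = 1.54e-15). Eno2, the neuronal enolase, had a log2 fold of -7.19 ± 0.21. Known dendritic and synaptic mRNAs, some of them in the first list, were lower in all 15 tested of 16 listed (median -6.67), with Kif5a, a kinesin motor, at -6.70 ± 0.21. The neuronal RNA seen in Sort was not evenly spread: mouse 21 of the Sall1 line had the highest neuronal share, 0.0372%, where the other 3 of its line had 0.0115 to 0.0125%. In Sort of the Cx3cr1 line the share ran from 0.0109 to 0.0347%, so its highest library was close to mouse 21.

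Of the 10 falls ranked largest by fitted fold, by the same rule as the rises, 8 were in genes with no count at all in the 8 Sort libraries. Gpr83, a G protein-coupled receptor, had 0 counts in Sort and 37.2 to 76.7 CPM in IgG (median 58.4). With 3 counts over all Sort libraries taken as the floor, it was at least 186-fold lower; the fitted fold of such a gene, and so its rank, depends on the prior count. In the same way Klhdc8a was at least 193-fold lower, Parm1 157-fold, Bean1 158-fold, Csmd2 148-fold, Ankrd34a 119.7-fold and Cecr6 114-fold. Il34, the neuronal ligand of the CSF1 receptor, was at least 119-fold lower, with 0 counts in Sort and 667 in IgG. Its receptor gene Csf1r, named with it after the values were seen, ranged from 5844 to 7767 CPM in Sort (median 6981) and from 92.3 to 189 CPM in IgG (median 118). Mtcl1 had 1 count and Dscaml1 2 counts over the Sort libraries, against 1744 and 2121 in IgG. The window of Gpr83 (chr9:14859960-14860259, plus strand) holds TATAAA 1 base before its annotated start.
Gpr83: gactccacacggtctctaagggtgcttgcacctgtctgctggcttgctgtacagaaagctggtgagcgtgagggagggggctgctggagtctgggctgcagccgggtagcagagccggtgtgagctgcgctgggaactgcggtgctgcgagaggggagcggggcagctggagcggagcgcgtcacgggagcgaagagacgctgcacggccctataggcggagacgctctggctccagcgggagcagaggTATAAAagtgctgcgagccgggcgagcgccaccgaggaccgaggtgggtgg

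Astrocyte genes were lower in 19 of 22 cases, higher in 2 and not passing in 1 (median -5.97). Clu (clusterin) ranged from 21.1 to 48.8 CPM in Sort (median 25.3) and from 876 to 1638 CPM in IgG (median 1419; log2 fold -5.74 ± 0.17, adjusted p = 1.54e-15), and Mlc1, a membrane protein of astrocyte end feet, had a log2 fold of -6.30 ± 0.23. The members that went the other way were Apoe (log2 fold 1.15 ± 0.45, adjusted p = 0.0372), which microglia can express, and Glul, glutamine synthetase (log2 fold 0.40 ± 0.18, adjusted p = 0.0453), both with overlapping groups. The call of Apoe was lost without Cx3cr1 mouse 3 or without any 1 of the Sall1 mice (log2 fold 0.92 to 1.20, adjusted p = 0.051 to 0.107). That of Glul was lost without Cx3cr1 mouse 1 or 3 or Sall1 mouse 9 or 17 (0.27 to 0.44, adjusted p = 0.0504 to 0.139), without the replicate block (0.31, adjusted p = 0.156), with DESeq2 (adjusted p = 0.0955) and with its size factors (adjusted p = 0.0597). Slc1a3, a glutamate transporter, did not pass (log2 fold 0.08 ± 0.22, adjusted p = 0.731), at 207 CPM in Sort and 185 in IgG by median. Glul and Slc1a3 are named after their values were seen. The share of the astrocyte list overlapped between Sort (0.271 to 1.27%) and IgG (0.927 to 1.32%), and Apoe alone stood at 11446 CPM in its highest Sort library. With Apoe left out, the share was 0.123 to 0.138% in Sort of the Cx3cr1 line, 0.106 to 0.123% in Sort of the Sall1 line and 0.765 to 1.16% in IgG. The other 21 members did not pass the test of the difference between lines.

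Oligodendrocyte genes were lower in 15 of 16 and higher in 1 (median -6.17, and -5.36 by title). Mal, a myelin proteolipid, ranged from 0 to 3.91 CPM in Sort (median 1.36) and from 82.6 to 162 CPM in IgG (median 131; log2 fold -6.27 ± 0.26, adjusted p = 4.4e-14), and Cryab, a small heat shock protein, had a fold of -4.56 ± 0.18. Cnp, a myelin phosphodiesterase, fell less (-3.54 ± 0.16). Trf, transferrin, rose and ranged from 1071 to 1578 CPM in Sort (median 1393) and from 327 to 586 CPM in IgG (median 410.4; log2 fold 1.44 ± 0.13, adjusted p = 4.12e-09). Precursor genes were lower in all 10 tested of 12 listed (median -6.17), among them Olig1 (-6.82 ± 0.24), a lineage factor, Cspg5 (-6.53 ± 0.27) and Cspg4 (-6.69 ± 0.36), the NG2 proteoglycan. Without the filter on low counts, which a gene can pass through IgG alone, all 12 were lower.

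Of 12 endothelial genes tested, of 14 listed, 10 were lower, 1 higher and 1 did not pass (median -5.27). Cldn5, a tight junction protein, had 2 counts in Sort and 1733 in IgG, and Egfl7 had a log2 fold of -6.05 ± 0.33. Eng, endoglin, ranged from 135 to 266 CPM in Sort (median 217) and from 34.4 to 73.6 CPM in IgG (median 50.1), without overlap (log2 fold 1.80 ± 0.18, adjusted p = 2.36e-08). Pecam1, an adhesion molecule of endothelium and some leukocytes that is named after its value was seen, did not pass (log2 fold -0.31 ± 0.29, adjusted p = 0.333). Mural genes were lower in all 8 tested of 10 listed (median -6.14, or -5.74 with 1 member at its bound). Vtn (vitronectin) stood at -5.49 ± 0.25 and Tagln, a smooth muscle protein, at -5.47 ± 0.30. Fibroblast and leptomeningeal genes were lower in all 7 tested of 10 listed (median -5.12). Genes of these lists can pass the filter on low counts through IgG alone. Without it 11 of 14 endothelial genes were lower and 1 was higher, and all 10 mural and all 10 fibroblast genes were lower. Ptgds, prostaglandin D synthase, ranged from 10.7 to 28.1 CPM in Sort (median 16.1) and from 700.1 to 1345 CPM in IgG (median 1147; log2 fold -6.17 ± 0.17, adjusted p = 1.15e-15), Pdgfra had a fold of -5.14 ± 0.39, and Dcn, decorin, had 3 counts in Sort and 563 in IgG.

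Of 10 genes of ependyma and choroid plexus tested, of 12 listed, 7 were lower and 3 did not pass. Without the filter on low counts, which a gene can pass through IgG alone, 9 of 12 were lower. The median of those tested, -1.66 also with 2 members at their bounds, was the nearest to 0 among the lists of non-myeloid brain cells. Ependymal genes were low, with 0 counts in Sort for Rarres2 (at least 44.4-fold lower) and Ccdc153 (at least 32.2-fold lower) and a log2 fold of -4.52 ± 0.39 for Foxj1, the factor of motile cilia. Of 7 choroid plexus genes, described here after their values were seen, 4 were lower and 3 did not pass. Ttr, transthyretin, which choroid epithelium secretes, ranged from 461 to 4061 CPM in Sort (median 1642) and from 749.6 to 1417 CPM in IgG (median 843) and did not pass (log2 fold 0.50 ± 0.28, adjusted p = 0.12). It passed as higher under 5 alternatives: without the replicate block (0.63, adjusted p = 0.0342), without TMM (0.73, adjusted p = 0.0302), after thinning (0.60, adjusted p = 0.0253), with the length trend removed (0.71, adjusted p = 0.0443) and without Cx3cr1 mouse 4 (0.70, adjusted p = 0.0178). Its Sort levels were 1686, 1721, 1192 and 461 CPM in the Cx3cr1 line and 1599, 2462, 4061 and 1367 CPM in the Sall1 line, so libraries differed more in Sort than in IgG. Folr1, a folate receptor (-0.31 ± 0.34, adjusted p = 0.401), and Kcnj13, a potassium channel (-0.69 ± 0.53, adjusted p = 0.232), did not pass. Enpp2 (-1.56 ± 0.46), Kl (-1.76 ± 0.32), Clic6 (-1.18 ± 0.34) and Aqp1 (-2.04 ± 0.37) were lower with overlapping groups. In the other sorted library of each mouse the share of this list ran from 0.0267 to 0.462%, and in Sort from 0.0527 to 0.452%. The 2 libraries of a mouse could differ widely: Sall1 mouse 17 had 0.452% in Sort and 0.14% in the other, and mouse 21 had 0.148% and 0.462%. The Sall1 line alone gave 2 lower and 4 not passing of 6, and the Cx3cr1 line 5 lower and 1 not passing of 6. The part of choroid plexus cells in these values was not tested.

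Markers of other blood-derived cells varied by gene. Red blood cell genes did not pass in any of 6 cases: Hbb-b1 ranged from 0.597 to 273 CPM in Sort (median 73.5) and from 28.6 to 128 CPM in IgG (median 68.3; log2 fold -0.65 ± 0.85, adjusted p = 0.493), Hbb-bs, whose sequence is nearly the same, gave -0.65 ± 0.85, and Hba-a1 gave -0.11 ± 0.77; reads of such copies cannot be assigned with certainty. The list's share in Sort ran from 0.000239 to 0.107%, with mice 1, 9 and 21 at most at 0.000769% and the others at 0.0266% or above. Of 12 listed monocyte genes 4 were tested, 3 lower and 1 higher. Ccr2, the chemokine receptor of monocytes, had 133 counts in Sort and 6 in IgG (log2 fold 4.87 ± 0.45, adjusted p = 7.71e-09). Ly6c1, Fn1 and Ace, all also vascular, were lower (-6.52 ± 0.36, -5.68 ± 0.39 and -3.34 ± 0.28). Of 11 neutrophil genes only Csf3r was tested, a cytokine receptor that ranged from 172 to 448 CPM in Sort (median 292) and from 2.27 to 7.72 CPM in IgG (median 4.02; log2 fold 5.78 ± 0.20, adjusted p = 6.35e-15), while 6 others were at 0 counts in all Sort libraries. Among lymphocyte genes Cd79b, a chain of the B cell receptor complex, ranged from 24.8 to 69.1 CPM in Sort (median 52.8) and from 0 to 1.62 CPM in IgG (median 0.167; log2 fold 6.41 ± 0.36, adjusted p = 4.71e-12). Cd4 had 2 counts in Sort and 113 in IgG, and the T cell markers Cd3e and Cd3g, named after their values were seen, had 1 and 0 counts in Sort.

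Border and perivascular macrophages, which share much of the microglial programme and line vessels and meninges, were represented by 13 genes. Of these 5 passed the filter on low counts, again possible through Sort alone, and all 5 were higher (median 3.53, and 4.63 in the Sall1 line). Without the filter all 13 were tested, 8 higher and 1 lower. Stab1, a scavenger receptor, ranged from 303 to 600.4 CPM in Sort (median 417) and from 13.5 to 22.5 CPM in IgG (median 18.5; log2 fold 4.29 ± 0.15, adjusted p = 5.92e-15). Ms4a6c (5.70 ± 0.29) and Ms4a7 (3.53 ± 0.51) followed, the latter with 83 counts in Sort and 11 in IgG. Among genes known from these cells, Cd163 had 61 counts over the Sort libraries, Lyve1 19 and F13a1 34, all named after their values were seen. Mrc1, another member of this list, lay above every IgG library in Sort of the Sall1 line. Its levels are given below with the line differences. The list's share was 0.037 to 0.0481% in Sort of the Cx3cr1 line, 0.0652 to 0.103% in Sort of the Sall1 line and 0.00295 to 0.00468% in IgG.

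Of 7 RNAs retained in the nucleus 3 were higher and 4 lower, where 36.7% of all genes tested were higher and 47.3% lower. Kcnq1ot1 rose (log2 fold 1.65 ± 0.16, adjusted p = 1.13e-08), as did Malat1 (2.24 ± 0.45) and Neat1 (1.03 ± 0.17), which are named after their values were seen. Malat1 ranged from 762 to 5990.4 CPM in Sort (median 2309) and from 196 to 927 CPM in IgG (median 424). Meg3, Miat and Mirg, which neurons express, were lower (-6.80 ± 0.43, -6.48 ± 0.35 and -5.92 ± 0.37). In the Sall1 line alone Malat1 did not pass (adjusted p = 0.0842). The share of reads in exons was also lower in Sort, 62.1 to 66.4% against 73.8 to 85.1% in IgG, and its part in these values was not tested.

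Y-linked genes had counts in every library and Xist had 0 in all 32. All 4 Y-linked genes tested were higher in Sort (median 1.18), among them Eif2s3y (2.07 ± 0.18), Ddx3y (1.25 ± 0.27) and Uty (1.11 ± 0.27).

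Cytosolic ribosomal protein genes gave 46 higher, 5 lower and 28 not passing of 79 (median 0.48). Of all genes tested 36.7% were higher and 47.3% lower. Without TMM 57 were higher and 2 lower, and with the length trend removed 52 and 7. Beyond a log2 fold of 1 only 8 of 79 were higher and 1 lower, against 22.4% and 34.8% of all genes tested. Their shares overlapped between Sort and IgG. Rps9 ranged from 892 to 1147 CPM in Sort (median 1019) and from 225 to 337 CPM in IgG (median 298; log2 fold 1.54 ± 0.13, adjusted p = 1.03e-09), Rps27l had a fold of 2.03 ± 0.17 and Rps20 of 1.02 ± 0.11. Rpsa, the laminin-binding member of the small subunit, went the other way (log2 fold -1.46 ± 0.14, adjusted p = 9.81e-09). Many of these genes have processed pseudogenes, so reads may have been shared. Nuclear-encoded respiratory chain genes were lower in 72 of 75, with 3 not passing and a median of -1.37. Uqcrc1, of complex III, ranged from 119 to 172 CPM in Sort (median 156) and from 738 to 1244 CPM in IgG (median 1086; log2 fold -3.05 ± 0.14, adjusted p = 3.71e-13). Ndufv1, of complex I, and Atp5b, of the ATP synthase, had folds of -2.78 ± 0.14 and -2.47 ± 0.13. The list took 0.925 to 1.15% of counts in Sort and 2.26 to 2.92% in IgG.

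The Sort over IgG fold was close in the lines over all genes (Pearson 0.976, Spearman 0.982 across 11122 genes, a description over genes that are no independent replicates). Of 7912 genes called in both lines 7911 had the same direction. A test of the difference itself called 15 of 12424 genes (0.121%), 12 with a higher fold in the Sall1 line (0.0966%) and 3 with a lower one (0.0241%). DESeq2 called 23, and 705 genes had an unadjusted p under 0.05. All 15 passed in the same direction by title, where 86 genes were called, and with both sorted libraries of a mouse summed, where 23 were called. Leaving out each mouse in turn, 9 of the 15 kept their call every time: Apoe, Mrc1, Cp, Cdkn1a, Phlda3, Khdrbs3, Pde2a, Tmem176a and Cacna1a. Ccr1 lost it without Cx3cr1 mouse 2, 3 or 4 or Sall1 mouse 7 (adjusted p = 0.057 to 0.397), and Actn1 without Cx3cr1 mouse 4 or Sall1 mouse 17 (0.0579 and 0.0656). Axl lost it without Cx3cr1 mouse 1 or 4 or Sall1 mouse 9 or 21 (0.0525 to 0.0959), and Ehd1, Fam212b and Myo5a without 5 to 7 of the mice, each taken alone. Line, and any batch in which the lines were handled, cannot be told apart.

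Among the 15 were Apoe and Mrc1, the latter a mannose receptor known from border macrophages. Apoe stood at 1740.0, 1363, 3318 and 1796 CPM in Sort of Cx3cr1 mice 1 to 4 and at 10632, 7554, 11446 and 11346 CPM in Sort of Sall1 mice 7, 9, 17 and 21, while IgG ran from 1423 to 2006 CPM. All 4 Sall1 libraries were above all 4 of the Cx3cr1 line, and its fold was 2.50 ± 0.19 in the Sall1 line and -0.02 ± 0.23 in the Cx3cr1 line (difference 2.29 ± 0.31, adjusted p = 0.00178). Mrc1 stood at 12.5, 4.02, 16.6 and 20.3 CPM against 112, 73.1, 119.7 and 134 CPM in Sort, with IgG at 1.42 to 6.51 CPM (difference 3.52 ± 0.41, adjusted p = 0.000588). Mrc1 is itself a member of the border macrophage list, so its counts are part of the share given above, and the part of such cells in it was not tested.

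Ccr1, a chemokine receptor, stood at 8.36, 8.03, 4.42 and 1.57 CPM in Cx3cr1 Sort and 197, 192, 151 and 175 CPM in Sall1 Sort (difference 4.92 ± 0.84, adjusted p = 0.0183). Cp, ceruloplasmin, a copper-binding ferroxidase, stood at 14.9, 5.36, 9.4 and 4.7 CPM and 227, 199.9, 217 and 237 CPM (difference 4.73 ± 0.48, adjusted p = 0.000201). Neither gene's Sort levels overlapped between lines. Ccr1 did not pass the filter on low counts in the Cx3cr1 line alone, where its Sort levels rest on few reads. Cdkn1a, the p21 inhibitor of the cell cycle, stood at 90.7, 49.5, 70.2 and 31.3 CPM and 464, 677, 484 and 509 CPM (difference 2.90 ± 0.36, adjusted p = 0.0008). Phlda3, like Cdkn1a a known target of p53, was lower in Sort than in IgG in both lines, and more so in the Cx3cr1 line (0.597, 0, 0.553 and 1.57 CPM against 14.5, 10.8, 11 and 14.7 CPM, difference 3.84 ± 0.55, adjusted p = 0.00299). In Cx3cr1 Sort Phlda3 had almost no reads, so the size of this difference rests on few counts.

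The 3 genes with a lower fold in the Sall1 line were Khdrbs3, Pde2a and Actn1. Khdrbs3, a splicing regulator, stood at 41.2, 36.2, 26 and 21.1 CPM in Cx3cr1 Sort and 3.94, 4.61, 6.88 and 3.91 CPM in Sall1 Sort (difference -3.29 ± 0.45, adjusted p = 0.00178). Pde2a, a phosphodiesterase, stood at 39.4, 50.9, 44.8 and 48.5 CPM and 6.57, 6.92, 3.44 and 5.87 CPM (difference -3.07 ± 0.36, adjusted p = 0.000588). Actn1, an actinin, had a difference of -1.88 ± 0.29 (adjusted p = 0.00777). In all 3 the Sort levels of the lines did not overlap. The other 6 genes, Cacna1a, Axl, Tmem176a, Ehd1, Fam212b and Myo5a, had a higher fold in the Sall1 line by 1.55 to 2.82. Axl, a receptor tyrosine kinase of phagocytes, stood at 52.5, 58.9, 95.6 and 39.1 CPM in Cx3cr1 Sort and 196, 234, 213 and 182 CPM in Sall1 Sort.

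**Figure D4:**
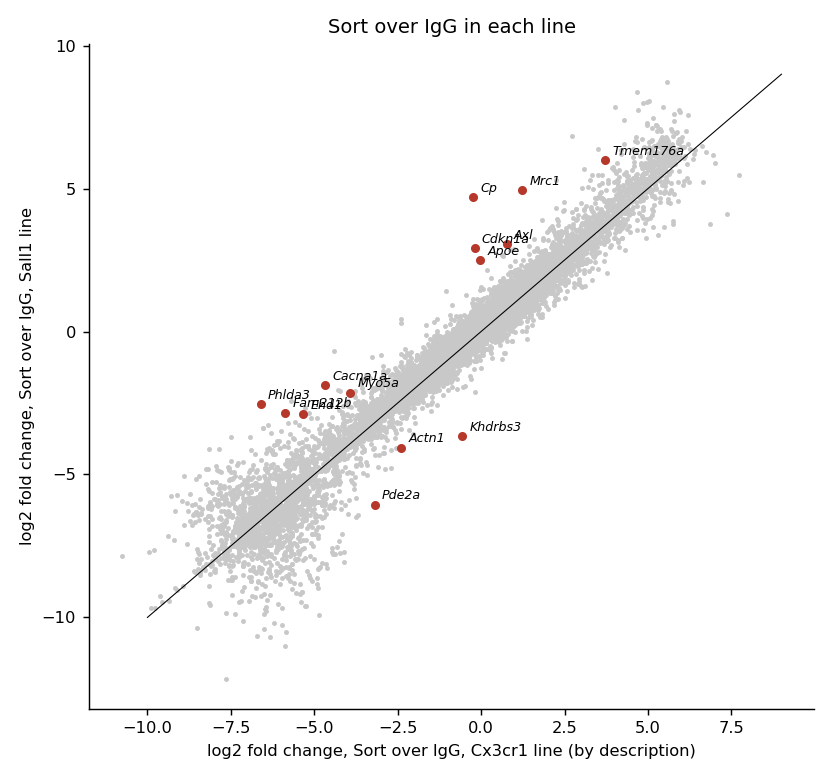
Log2 fold of Sort over IgG in the Cx3cr1 line by description (x) and the Sall1 line (y) for the 11122 genes tested in both, with the line of equality. Red points are 14 of the 15 genes whose fold differed between lines, as Ccr1 was not tested in the Cx3cr1 line; most other genes lie along the line.

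**Figure D5:**
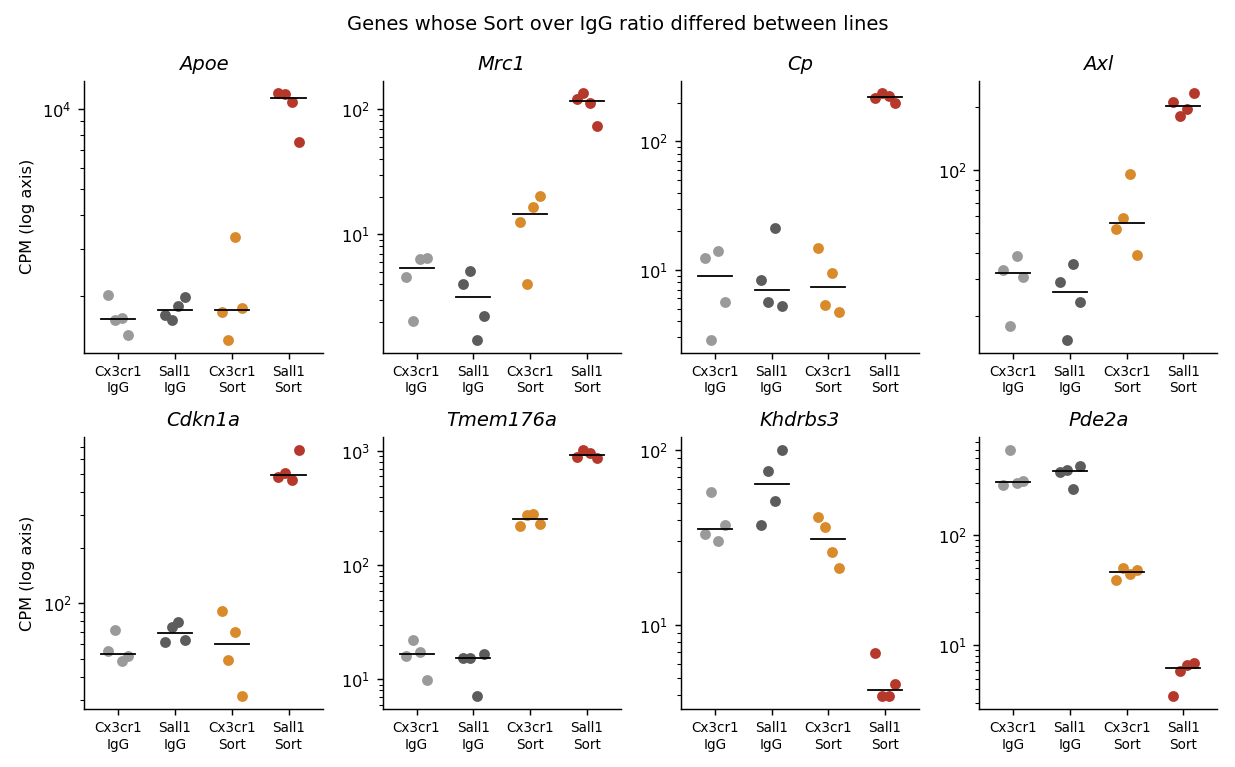
CPM (log axis) of 8 of the 15 genes in each library, with 4 points and a median per line and kind. IgG levels of the lines overlap for each gene, while Sort levels of the Sall1 line are higher for Apoe, Mrc1, Cp, Axl, Cdkn1a and Tmem176a and lower for Khdrbs3 and Pde2a.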

How the data were processed

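RNA-seq libraries of polyadenylated RNA came from 8 mice, each brain divided into 4 samples per the series' design. The submitters' processing notes name bcl2fastq, HISAT 0.1.5, HOMER and build mm9; strand and the handling of multiply mapped reads are not given in the sources used here. The authors deposited raw exon counts per gene, per the file headers, for 24411 genes.

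Genes were kept with edgeR's filter at a count of 10, scaled by TMM and tested with edgeR 4.0.16 (glmQLFit, glmQLFTest; R 4.3.3, limma 3.58.1) with Benjamini-Hochberg adjustment at 0.05 and the mouse as block. A gene can pass the filter through Sort or IgG alone. The line difference was the interaction term. A gene with 0 counts was bounded at 3 counts over its group. On simulated data of the main comparison (11977 genes) 86% of 2-fold and 97% of 4-fold changes were recovered, with 4 false calls. There 100 genes were changed at each fold, up and down alike, on a shared profile. In the real comparison 84% of genes passed, so the simulation cannot give its rate of false calls.

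The pairing comes from the series' design (same brain). The correlation of same-mouse deviations ran from -0.103 to 0.209 and was over 0.1 in 2 of 8 mice. Between different mice of a line it ran from -0.161 to 0.12, so the ranges overlapped. Alternatives were DESeq2 1.42.0, its size factors, no TMM, no filter, thinning to 704183 counts, removal of a length trend, a log2 fold threshold of 1, no block, the Cx3cr1 libraries by title, summed sorted libraries and each mouse left out.

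The libraries, gene lists and rules were chosen with earlier results of these data known. Named genes were Cx3cr1, Sall1, Rpl22 and 4 cell markers. Each list contributed its 3 top members by adjusted p on the side of its median, and the top call on the opposite side. Also named were the 10 largest rises and 10 largest falls among non-overlapping calls averaging a log2 CPM of 4 or more, the 5 highest levels per kb in Sort and in IgG, and the 5 largest line differences in either direction with that average. Other genes named were chosen after their values were seen. A gene that this rule selects is not reported here.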

Additional observations from a re-analysis of the deposited data

Results flagged for a closer look

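Of 148 sets of 4 library values checked, 8 held a library far from the other 3, and chance alone marks about 1 in 20 such sets. The number flagged was thus near what chance alone gives, and the neuronal and synaptic lists share members. In Sort of the Sall1 line, mouse 21 had the highest shares of neuronal genes (0.0372% of counts, others 0.0115 to 0.0125%), of dendritic and synaptic mRNAs (0.0559%, others 0.0395 to 0.0414%) and of heat shock genes (0.43%, others 0.312 to 0.323%). The same library of mouse 21 had 65.8% of its reads in exons, the others of its group 62.1 to 62.4%. The oligodendrocyte share was highest at 0.169% in 1 Cx3cr1 Sort library (others 0.134 to 0.136%) and at 0.772% in 1 Cx3cr1 IgG library (others 0.654 to 0.662%). Among Sall1 IgG libraries 1 had a neuronal share of 1.72% (others 1.98 to 2.01%). Genes of the Y chromosome took 0.00223% of counts in the Cx3cr1 IgG library of mouse 2, against 0.0145 to 0.0153% in the others. That library also stood apart from the other IgG libraries above.

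The Sort over IgG fold differed between the lines, by the interaction test over 8 mice, for 15 genes. The log2 difference, Sall1 minus Cx3cr1 line, was 4.92 for Ccr1, 4.73 for Cp, 3.84 for Phlda3, 3.53 for Mrc1, 2.90 for Cdkn1a, 2.82 for Fam212b, 2.58 for Cacna1a, 2.29 for Apoe, 2.23 for Ehd1, 2.08 for Tmem176a, 2.07 for Axl and 1.55 for Myo5a. It was -3.29 for Khdrbs3, -3.07 for Pde2a and -1.88 for Actn1. The line and the handling of its mice cannot be told apart.

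The 8 sorted libraries not described as Sort also carried microglial RNA: the homeostatic list took at least 15.5% of their counts, against 0.321 to 0.473% in IgG.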

How the results depend on the processing

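Depth limits the low genes: Sort libraries held 746794 to 1808789 counts, and thinning all libraries to 704183 counts left 8268 calls, 8181 of them among the 10435. No gene named by rule changed direction past the threshold under any alternative run. Without the replicate block 10435 genes were called (4529 higher, 5906 lower), 10331 of them shared and in the same direction, and the line difference had 22 calls, 5 of them lower; omitting it moved no other count of calls over all genes by over 1.5 times, while the higher astrocyte genes fell from 2 to 1 and the higher genes of ependyma and choroid plexus went from 0 to 1. With the length trend removed 9491 calls kept their direction and 110 turned. DESeq2 kept 10271, the Cx3cr1 libraries by title 9425 and summed sorted libraries 10123 calls, none turned. A log2 fold threshold of 1 lowered the higher genes to 2784 in both lines, 2605 in the Sall1 line and 2456 in the Cx3cr1 line, by its own construction.

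Leaving out each mouse gave 10263 to 10603 calls in both lines. For the line difference it gave 9 to 16 calls, 7 to 13 of them higher and 2 to 5 lower, with 9 calls (7 higher) without Cx3cr1 mouse 4 and 5 lower ones without Cx3cr1 mouse 1. Its other counts were 86 by title (51 higher, 35 lower), 23 with summed libraries (19 higher), 23 with DESeq2 (19 higher), 27 without the filter (23 higher), 8 after thinning (6 higher) and 7 beyond a log2 fold of 1 (5 higher). All 15 genes were called by title, with summed libraries, with DESeq2 and without the filter, but 6 after thinning, where fewer counts were tested; the cause of the other moves was not tested. Over single genes 2521 values kept their side of the threshold, 71 lost and 10 gained a call. Over lists and alternatives, 39 values of a list's median moved by more than the spread between mice and 483 by less.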
